A study of Mus musculus with 12 samples.

Results

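Caveolae, flotillin rafts and fenestrae are ways in which an endothelial cell carries or lets pass cargo across its membrane, and 8 genes of this machinery are described here in brain endothelial cells of old and young mice: the flotillins Flot2 and Flot1, the caveolins Cav1 and Cav2, the fenestral diaphragm protein Plvap, the dynamin Dnm2 and the EHD proteins Ehd2 and Ehd4. They were taken by symbol from a table of 24015 genes, and all 8 were found and passed the filter on low values. Flot2 is in the set because its RNA was much higher in old samples, so its difference between ages is given as a description with no test. The old group consisted of 6 samples from wild-type C57BL/6 mice of 19 months and the young group of 6 samples from wild-type C57BL/6 mice of 3 months, and no mouse carried a transgene or received a treatment according to the labels. Each sample held cells pooled from 2 mice, sorted by flow cytometry from cortex and hippocampus together. The values are normalized counts, that is, reads per gene divided by a factor for the sample, and between 25809499 and 40393814 reads per sample fell in genes.

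Caveolae are flask-shaped pits of the plasma membrane built from caveolins and cavins. Endothelial cells of most organs are rich in them, whereas in brain endothelium vesicle traffic is held low as part of the blood-brain barrier. Dynamins cut the neck of a budding vesicle, and EHD proteins are membrane-shaping ATPases, of which EHD2 sits at the neck of caveolae and holds them at the surface. Flotillins are raft proteins of the SPFH family that assemble as hetero-oligomers of flotillin-1 and flotillin-2 on the inner face of the membrane. PLVAP forms the diaphragms of fenestrae and caveolae in leaky vessels and is low in mature blood-brain barrier endothelium.

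The sorted cells carried endothelial RNA: all 12 endothelial markers examined, among them Pecam1, Cdh5 and Cldn5, had at least 10 normalized counts in every sample. Their summed level was 858833 to 1147887 in old samples and 988663 to 1149430 in young samples. RNA of other cells was present at lower levels and is set beside the genes it touches. Values of old 7, old 9 and young 9 fell with the GC content of the transcript, by 0.07, 0.17 and 0.17 on the log2 scale for each 10% of GC, while those of old 1 and young 1 rose by 0.14 and 0.12. Old 7, old 9 and young 9 are called the 3 GC-trend samples below. Old 1 and young 1, whose values rose by more than those of old 7 fell, stay in when those 3 are left out. Leaving them out is therefore not a full correction for GC.

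Promoter sequences are shown for Flot2, the gene with the large difference, and for Cav1 and Cav2, neighbours whose RNA varied together within an age, because these are the genes whose levels the results turn on. They are the 250 bases before each transcription start in RefSeq (build GRCm38.p6), where 6 of the 8 genes had an entry and Cav1 had 2. Capitals mark letters matched on either strand: GGGCGG is a GC box, CCAAT the box of that name, TATAAA the motif read by the TATA-binding protein, CACGTG an E-box, and CCGGAA the core of an ETS-family motif. A capital run is a letter match, not a measured binding site.
Flot2, chr11:78037681-78037930, plus strand: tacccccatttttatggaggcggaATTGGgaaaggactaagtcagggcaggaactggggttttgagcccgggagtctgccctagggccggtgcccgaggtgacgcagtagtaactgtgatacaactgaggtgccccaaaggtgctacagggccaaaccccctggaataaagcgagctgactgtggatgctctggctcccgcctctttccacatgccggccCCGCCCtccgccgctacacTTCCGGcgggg
Cav1 first start, chr6:17306085-17306334, plus strand: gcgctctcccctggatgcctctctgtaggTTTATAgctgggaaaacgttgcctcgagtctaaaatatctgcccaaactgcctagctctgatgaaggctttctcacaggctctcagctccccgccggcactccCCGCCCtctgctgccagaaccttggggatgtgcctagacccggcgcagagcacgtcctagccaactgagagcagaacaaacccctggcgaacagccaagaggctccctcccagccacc
Cav1 second start, chr6:17307390-17307639, plus strand: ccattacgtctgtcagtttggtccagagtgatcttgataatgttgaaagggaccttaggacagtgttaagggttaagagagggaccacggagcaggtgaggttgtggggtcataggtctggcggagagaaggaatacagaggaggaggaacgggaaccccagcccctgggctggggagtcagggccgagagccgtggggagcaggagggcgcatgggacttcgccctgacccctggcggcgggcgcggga
Cav2, chr6:17280935-17281184, plus strand: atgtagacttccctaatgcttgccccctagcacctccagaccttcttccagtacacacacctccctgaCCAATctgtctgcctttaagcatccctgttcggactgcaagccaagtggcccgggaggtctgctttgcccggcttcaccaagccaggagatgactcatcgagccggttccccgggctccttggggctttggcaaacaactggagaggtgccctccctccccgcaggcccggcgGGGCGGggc
The Flot2 window held 1 GGGCGG, 1 CCAAT and 1 CCGGAA. The Cav2 window held 1 GGGCGG and 1 CCAAT, the window of the first Cav1 start 1 GGGCGG and 1 TATAAA, and the window of the second Cav1 start none of the 5 motifs. Such matches are common: of 32851 mouse promoter windows of the same length, 32.7% held GGGCGG, 33.8% CCAAT, 12.4% TATAAA, 12.03% CCGGAA and 6.02% CACGTG. GC content was 60.8% in the Flot2 window and 62.0% in the Cav2 window.

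Flot2, which encodes flotillin-2, was the gene of the 8 whose old and young samples stood apart. Its normalized count was lowest at 2033, median 2253 and highest at 2879 in old samples, against 445, 477 and 676 in young samples. Every old sample lay above every young one, and the gap between the groups was wider than the range within either. The mean was 2368 ± 314 over the 6 old samples and 525 ± 100 over the 6 young samples (SD), which gives a ratio of 4.51, and the difference of mean log2 values was 2.18. Among the 5734 genes with a mean of at least 1000, Flot2 had the 9th highest log2 difference. With any 1 sample left out, the ratio of means stayed between 4.31 and 4.78. In bulk samples such as these, fewer cells of a type and less RNA per cell cannot be told apart, and this holds for every difference below. The gene lies on chromosome 11 at 78037931 to 78060434 on the plus strand (GENCODE vM21, GRCm38). The protein-coding genes on either side of it did not pass the test: Dhrs13 (194 ± 38.3 in old, 160 ± 30.9 in young, adjusted p = 0.407 by limma) and Eral1 (993 ± 163 in old, 945 ± 150 in young, adjusted p = 0.791 by limma).

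Flot1, whose protein is the partner of flotillin-2 in the hetero-oligomer, did not pass the test. Its normalized count ran from 1641 through a median of 2141 to 2536 in old samples, and from 1897 through 2520 to 2877 in young samples. The groups overlapped widely, with 5 of 6 old samples below the young median. The log2 difference was -0.19 (SE 0.12, 95% interval -0.45 to 0.07, limma adjusted p = 0.368). Flot1 lies on chromosome 17 at 35823230 to 35832791, plus strand, away from Flot2.

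The balance of the flotillin pair therefore differed between the groups through Flot2. Per kilobase of exon, Flot2 stood at 1.06 to 1.48 times Flot1 in old samples (median 1.09), against 0.193 to 0.260 times in young samples (median 0.231). This ratio carries the difference that chose Flot2 and adds no separate evidence. Together the flotillin RNAs summed to 3936 to 5245 normalized counts in old and 2364 to 3552 in young samples. In the plot of Flot2 against Flot1 the old samples form a band above the young ones at about the same Flot1 level.

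Within an age, where the choice of Flot2 played no part, its spread was ordinary: the SD on the log2 scale was 0.19 in old and 0.26 in young samples. That pooled spread lay at the 44.9th percentile of 4267 genes of similar level, whose median was 0.24. Flot2 and Flot1 deviated from their age means in the same direction in part (Pearson r = 0.63, permutation p = 0.0379; Spearman rho = 0.66, p = 0.0268; n = 12), but over the 28 gene pairs examined this did not pass (adjusted p = 0.281 and 0.188). Without the 2 samples farthest from the Flot2 median r was 0.47, and without the 3 GC-trend samples it was 0.84 (n = 9, permutation adjusted p = 0.0987). After removal of a linear GC trend it was 0.51 (permutation adjusted p = 0.531); Flot2 and Flot1 transcripts hold 56.2% and 57.1% GC. The 5 genes most like Flot2 in these deviations, of 10360 compared, were the pyruvate dehydrogenase kinase Pdk2 (r = 0.94), the thiamine triphosphatase Thtpa (0.91), the nucleotide hydrolase Nudt18 (0.91), the heparan sulfate sulfotransferase Hs3st1 (0.90) and the anaphase-promoting complex subunit Anapc7 (0.90), over 12 samples. None of the 5 passed the test between ages; Hs3st1 was nearest, at a log2 difference of 0.41 (limma adjusted p = 0.148). The 100th gene in the order of likeness to Flot2 had r = 0.73.

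**Figure D1:**
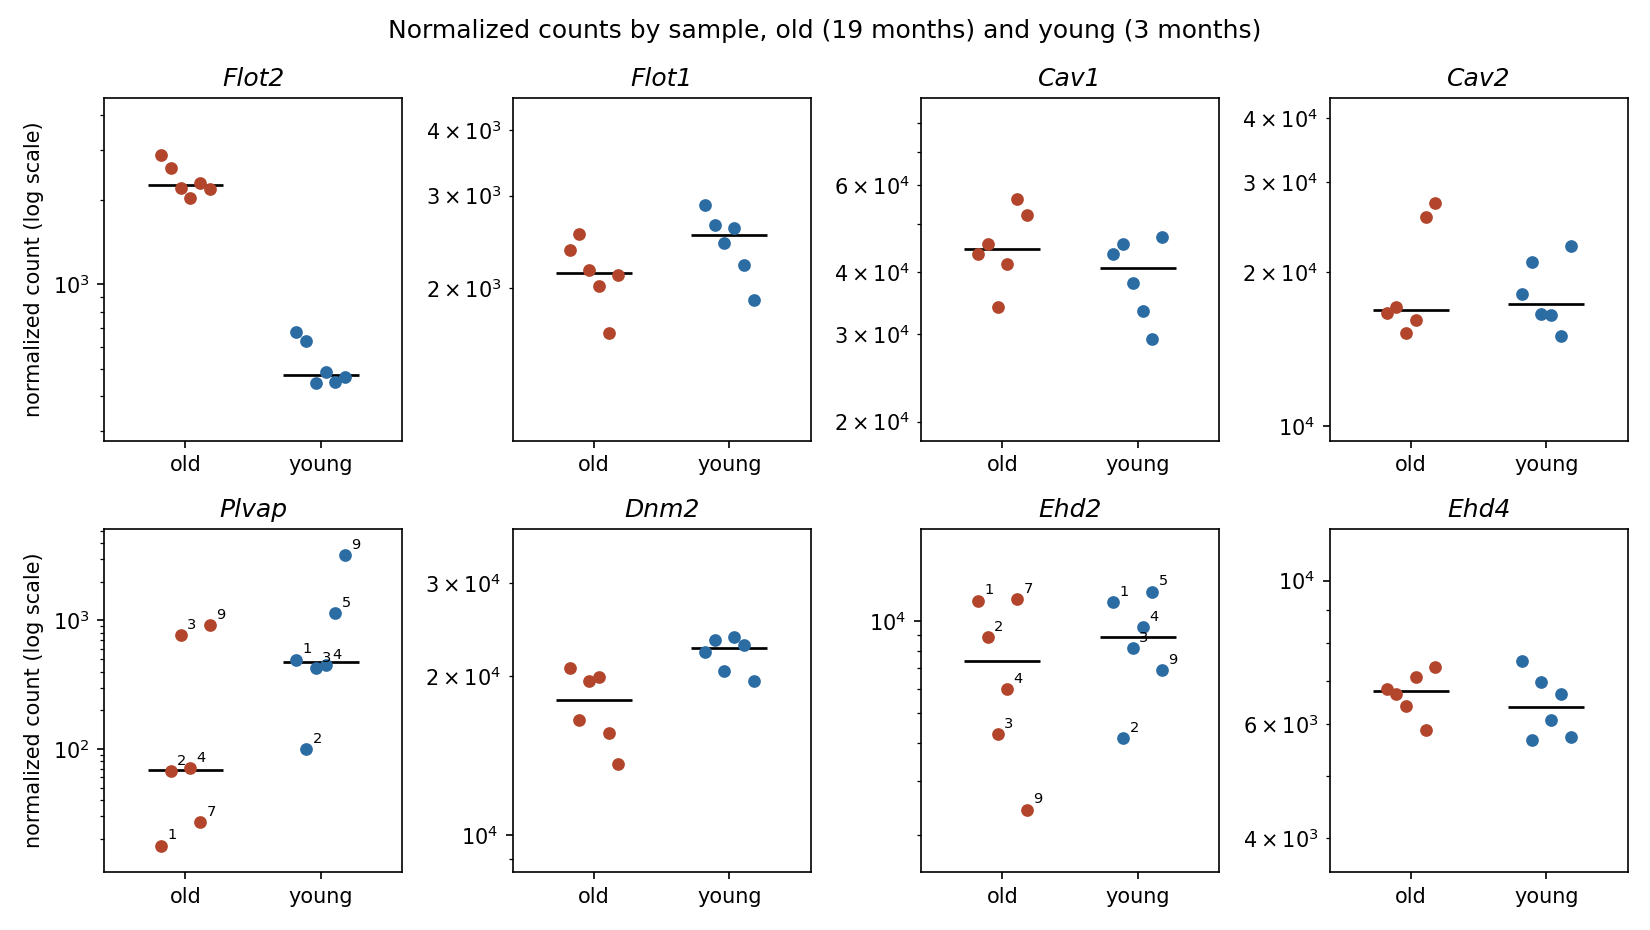
Normalized counts of the 8 genes on log axes, 1 point per sample, with 6 old samples on the left, 6 young samples on the right and bars at the medians; points of Plvap and Ehd2 carry the sample numbers. Flot2 is the gene whose groups do not overlap, with old samples at 2033 to 2879 and young samples at 445 to 676, while Plvap spans 17.6 to 3205.

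Cav1, the protein that drives caveola formation in endothelium, and Cav2, which joins it in the coat, were among the most abundant RNAs of these cells and did not pass the test between ages. Per kilobase of exon, the mean level of Cav1 was 12345 normalized counts, at the 99.4th percentile of the genes tested, and that of Cav2 was 5691, at the 98.4th. Cav1 ran from 33992 through a median of 44654 to 56187 in old samples, and from 29276 through 40869 to 47120 in young samples. The groups overlapped, with old 7 and old 9 highest and young 5 lowest. The log2 difference of Cav1 was 0.21 (SE 0.14, 95% interval -0.10 to 0.51, limma adjusted p = 0.405), and 0.13 without the 3 GC-trend samples. As a fold, the interval runs from 0.93 to 1.43 and includes no change.

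Cav2 ran from 15232 through a median of 16896 to 27325 in old samples, and from 15011 through 17368 to 22445 in young samples. Its old mean was lifted by old 7 and old 9, which stood at 25613 and 27325 while the other 4 old samples were at 15232 to 17136. The log2 difference was 0.08 (SE 0.16, 95% interval -0.26 to 0.42, limma adjusted p = 0.794), and its sign was not stable: it was -0.09 without the 3 GC-trend samples. The transcripts of Cav2 and Cav1 hold 41.1% and 46.5% GC, below the median of 50.2% over the genes tested.

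Cav1 and Cav2 varied together from sample to sample. After removing the age means, Pearson r was 0.86 (permutation p = 0.00011, adjusted p = 0.00308 over 28 pairs) and Spearman rho 0.90 (permutation p = 4.0e-05, adjusted p = 0.00112) over 12 samples. Within the 6 old samples r was 0.87 and within the 6 young samples 0.92. Without the 2 samples farthest from the Cav1 median r was 0.86, without the 3 GC-trend samples it was 0.90 (n = 9, permutation adjusted p = 0.0428), and after removal of a linear GC trend it was 0.87 (permutation adjusted p = 0.00224). Of the 28 pairs it was the 1 that passed. Per kilobase, Cav2 stood at 0.387 to 0.541 times Cav1 in old samples and 0.429 to 0.530 times in young samples, ranges that overlap.

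The caveolin pair lies on chromosome 6, with Cav2 at 17281185 to 17289115 and Cav1 at 17306335 to 17341452, both on the plus strand (GRCm38). Gm15581 overlaps both genes on the opposite strand and has no values in the deposited table. The flanking gene Tes, an actin-linked LIM protein, averaged 2977 ± 277 in old and 3459 ± 474 in young samples (log2 difference -0.21, limma adjusted p = 0.227). Met, the receptor for hepatocyte growth factor on the other side, was at 0 in every old sample and between 0 and 15.0 in young samples, too low to test. By the same within-age measure the genes most like Cav1 were Atl1 (r = 0.97), which shapes the endoplasmic reticulum, the proton pump subunit Atp6v0e2 (0.96), the glycogen branching enzyme Gbe1 (0.95), the SUMO ligase Nsmce2 (0.94) and the secretory pathway gene Sec22a (0.94). The 100th gene in that order still had r = 0.85, so many genes share this pattern across the samples.

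**Figure D2:**
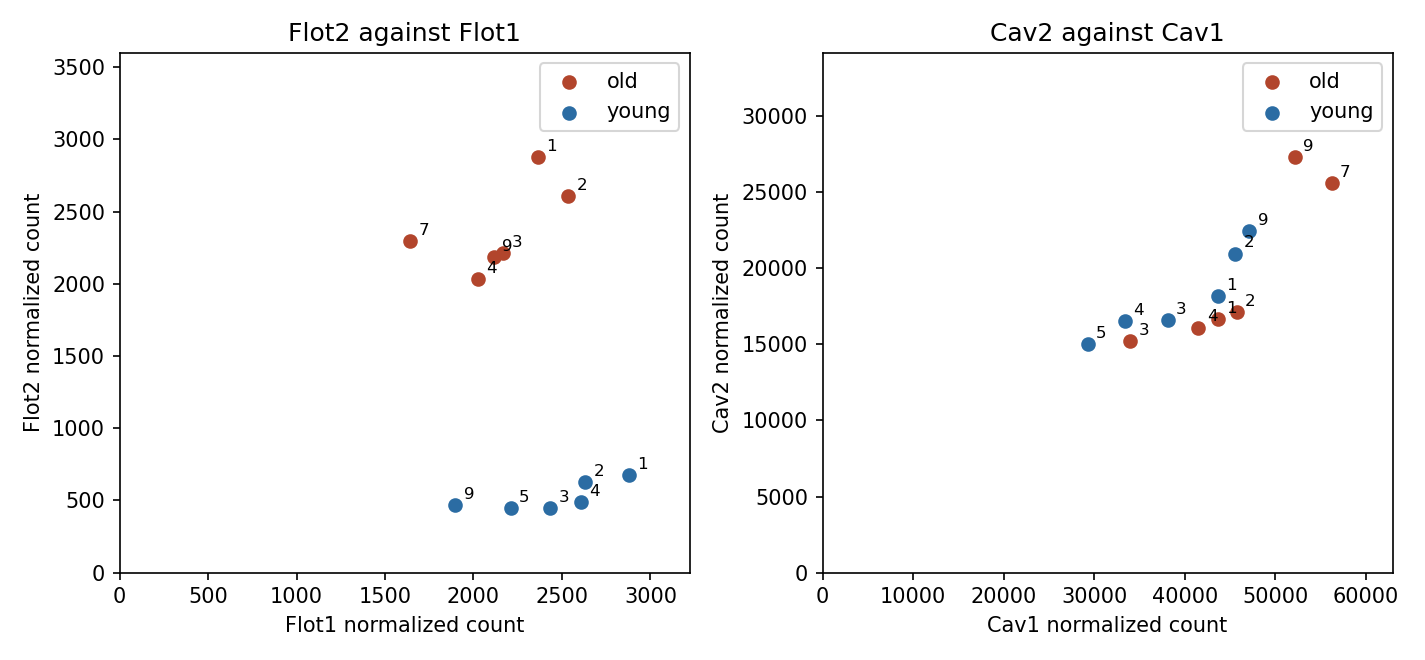
Normalized counts of Flot2 against Flot1 and of Cav2 against Cav1, 1 point per sample with its number, old in red and young in blue. Old samples have 2033 to 2879 counts of Flot2 and young samples 445 to 676 over similar Flot1 counts, while Cav2 and Cav1 lie along 1 band that both ages share, with old 7 and old 9 at its upper end.

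Plvap was the most variable of the 8 genes and did not pass the test. Its normalized count ran from 17.6 through a median of 68.9 to 924 in old samples, and from 99.5 through 474 to 3205 in young samples. Most old samples were low, at 17.6 to 70.9, but old 3 and old 9 reached 769 and 924, above 4 of the 6 young samples. The log2 difference was -2.37 (SE 0.97, 95% interval -4.44 to -0.31, limma adjusted p = 0.149), and 4 of 6 old samples lay below the young median. On the recovered reads edgeR gave -1.63 (adjusted p = 0.334). The ratio of means, old over young, was 0.322. It was 0.599 without young 9, the highest sample, and 0.196 without old 9.

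The SD of Plvap within an age was 2.06 on the log2 scale, at the 99.8th percentile of 3725 genes of similar level, whose median SD was 0.29. Its highest old sample was 52.4 times its lowest, and its highest young sample 32.2 times its lowest. Per kilobase it averaged 322 normalized counts, the lowest of the 8 genes. Of 10360 genes compared, those most like it in within-age deviations were Pam16 (r = 0.88), the nepmucin gene Cd300lg (0.87), the cyclin gene Ccnc (0.87), Rpusd3 (0.85) and 2010111I01Rik (0.84). Without the 3 GC-trend samples these values were 0.81 for Pam16, 0.73 for Cd300lg, 0.83 for Ccnc, 0.79 for Rpusd3 and 0.66 for 2010111I01Rik. The 100th gene in that order had r = 0.69 over the 12 samples. These are the highest values of many, and whether the genes share regulation with Plvap was not tested. Cd300lg averaged 158 ± 84.1 in old and 310 ± 179 in young samples (log2 difference -0.91, limma adjusted p = 0.142). Gtpbp3, a tRNA-modifying enzyme gene that overlaps Plvap on the other strand of chromosome 8, had 428 ± 81.4 in old and 383 ± 69.7 in young samples (limma adjusted p = 0.617). Reads from overlapping genes cannot be told apart without strand, and no strand setting is given in the sources used here.

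Plvap is also made by fenestrated vessels such as those of the choroid plexus, so choroid plexus markers were read beside it. The 11 epithelial markers of that tissue summed to 5365 to 12635 normalized counts in old and 4242 to 8921 in young samples, most of it from Enpp2 (4966 to 8578 in old, 4218 to 7676 in young). Transthyretin (Ttr) ran from 0 to 3076 in old and 0 to 907 in young samples, and Kcne2 was at 0 in 11 of 12 samples. Old 3 and young 9, both high in Plvap, had the highest sums of their ages (12635 and 8921), whereas old 9, the highest old sample for Plvap, had 5594. Fibroblast and meningeal markers summed to 66.9 to 600 in old and 212 to 603 in young samples, with Dpt at 0 in all 12. Their part in the level of Plvap was not tested.

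Dnm2, the ubiquitous dynamin that cuts caveolae and clathrin-coated vesicles from the membrane, did not reach the threshold by limma. Its normalized count ran from 13605 through a median of 18058 to 20730 in old samples, and from 19623 through 22577 to 23749 in young samples. All 6 old samples lay below the young median, and 2 of the old samples overlapped the lower young ones. The mean was 17664 ± 2836 over the 6 old and 22066 ± 1683 over the 6 young samples (SD), with a log2 difference of -0.33 (SE 0.11, 95% interval -0.57 to -0.10, limma adjusted p = 0.0833). DESeq2 on the recovered reads and limma after removal of a linear GC trend took it past the threshold (adjusted p = 0.0489 and 0.0420), while edgeR (adjusted p = 0.111) and the fit without the 3 GC-trend samples (-0.24, adjusted p = 0.138) did not. Tmed1, which overlaps Dnm2 on the opposite strand of chromosome 9, averaged 753 ± 165 in old and 682 ± 166 in young samples (limma adjusted p = 0.654). The deviations of Dnm2 ran against those of Cav2 (r = -0.77, permutation p = 0.00869, adjusted p = 0.122; rho = -0.77, permutation adjusted p = 0.140; n = 12). Without the 3 GC-trend samples r was -0.02 (n = 9), whereas after removal of a linear GC trend it was -0.63 (permutation adjusted p = 0.531).

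Ehd2, the EHD protein of the caveolar neck, varied widely within each age and did not pass the test. Its normalized count ran from 2414 through a median of 7403 to 11758 in old samples, and from 4142 through 8846 to 12475 in young samples. The lowest values were old 9, young 2 and old 3, and old 1, old 7, young 1 and young 5 were the highest. The log2 difference was -0.35 (SE 0.36, 95% interval -1.12 to 0.42, limma adjusted p = 0.586). Single samples moved it: it was -0.06 without old 9, -0.23 without old 3, -0.23 without young 5 and -0.55 without young 2. The SD within an age was 0.76 on the log2 scale, at the 99.3rd percentile of 1388 genes of similar level. The genes most like it, a comparison chosen after its values were seen, were B4galt2 (r = 0.95), Rnf10 (0.95), Ptp4a2 (0.95), Stx2 (0.92) and Tmem242 (0.92). The 100th of the 10360 genes compared had r = 0.74.

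Ehd4, an EHD protein of early endosomes, was the steadiest of the 8. It ran from 5874 through a median of 6748 to 7348 normalized counts in old samples, and from 5679 through 6390 to 7504 in young samples. The log2 difference was 0.06 (SE 0.09, 95% interval -0.14 to 0.26, limma adjusted p = 0.736). Its within-age SD of 0.14 was at the 17.7th percentile of 1747 genes of similar level. Per kilobase, Ehd4 and Ehd2 were at similar mean levels, 1641 and 1589 normalized counts, yet Ehd4 stood at 0.638 to 3.89 times Ehd2 in old and 0.685 to 1.75 times in young samples.

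**Figure D3:**
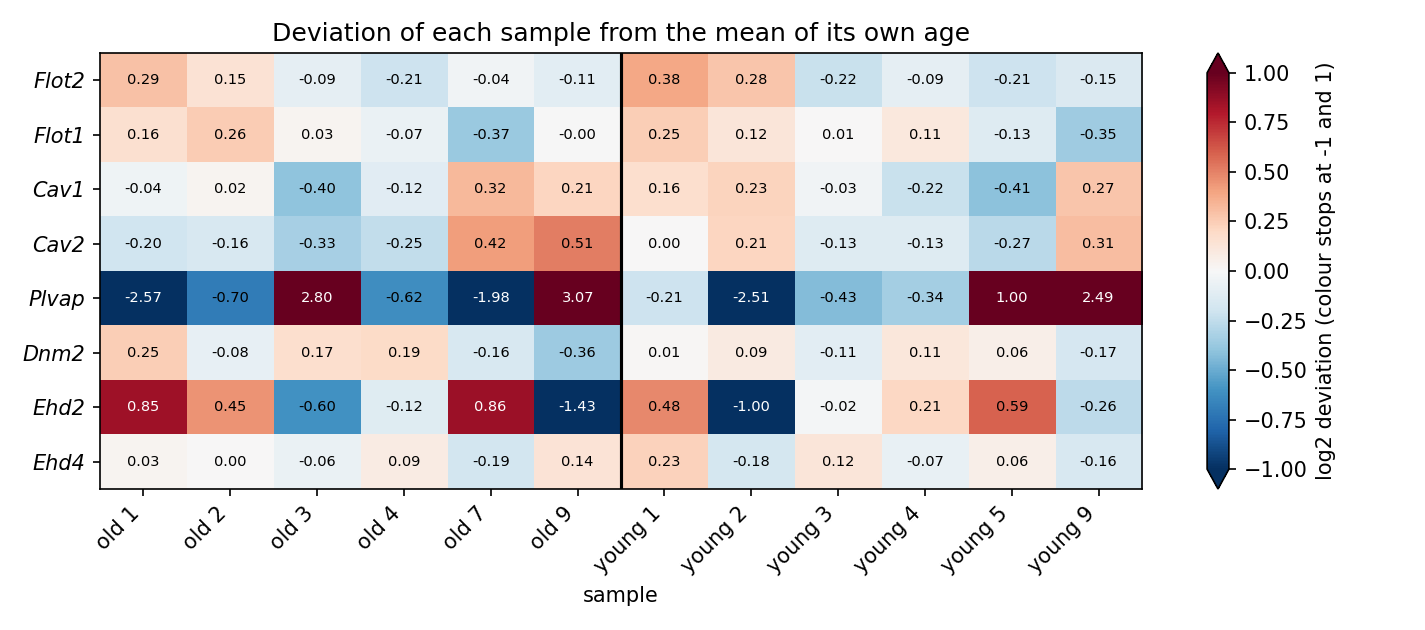
Deviation of each sample from the mean of its own age on the log2 scale, 8 genes by 12 samples, with old samples left of the line and young samples right of it; colours stop at -1 and 1 and the numbers give the values. Plvap and Ehd2 swing the most, Cav1 and Cav2 rise and fall together, and Ehd4 stays within 0.23 of its mean.

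Counted together, 0 of the 7 genes other than Flot2 passed limma's threshold (adjusted p under 0.05), against 6.94% of the 12777 genes tested, of which 3.73% were higher and 3.21% lower in old samples. Before adjustment 2 of the 7, Plvap and Dnm2, had p under 0.05 by limma, as did 23.8% of all genes. By edgeR 0 of 7 passed, against 6.05% of its genes, and by DESeq2 1 of 7 (Dnm2), against 10.2%. With the GC trend removed 1 of 7 passed (Dnm2), against 7.94%. Flot2 was the 1 gene of 8 whose old and young samples did not overlap, against 4.29% of all genes. It was chosen on that contrast, and the counts for the other genes lie near these backgrounds.

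**Figure D4:**
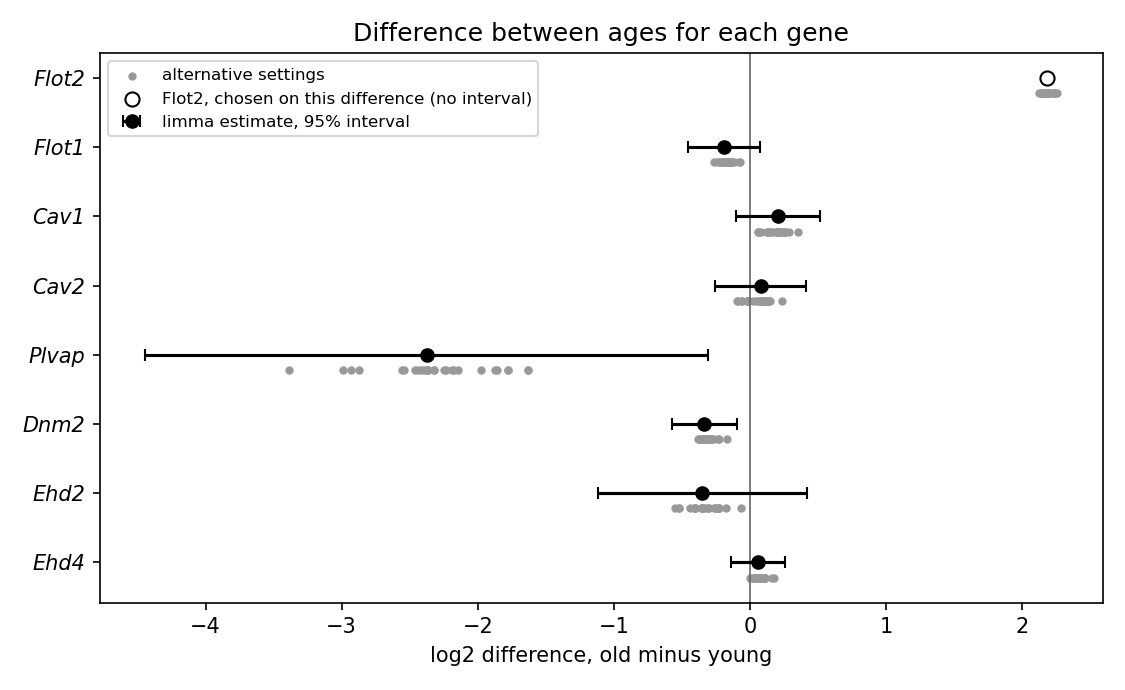
Log2 difference, old minus young, of the 8 genes. Filled points are limma estimates with 95% intervals, the open point is Flot2 with no interval since it was chosen on this difference, and small grey points are the values under 29 alternative settings. Flot2 stays between 2.12 and 2.26, Plvap has the widest interval (-4.44 to -0.31), and the settings for Cav2 fall on both sides of 0.

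The list of caveola coat and accessory proteins had 17 tested genes, 5 of them among the 8 genes above. Of the other 12, 2 rose and 0 fell, against 3.73% and 3.21% of all genes tested, and the median log2 difference was 0.11, against -0.01 over all genes. The cavins, which form the outer coat, did not pass: Ptrf (Cavin1) was at 32279 ± 6720 in old and 29514 ± 4628 in young samples (log2 difference 0.12, limma adjusted p = 0.681), Sdpr (Cavin2) had a log2 difference of 0.11 (adjusted p = 0.565) and Prkcdbp (Cavin3) 0.19 (adjusted p = 0.385). The genes that rose were relatives of the dynamin and EHD members. Dnm1, a dynamin known for synaptic vesicle recycling, averaged 266 ± 144 in old and 59.8 ± 47.6 in young samples (log2 difference 2.19, limma adjusted p = 0.0199). Ehd3, an endosomal EHD protein, averaged 2097 ± 150 in old and 1542 ± 250 in young samples with no overlap (log2 difference 0.46, limma adjusted p = 0.0225).

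Neuronal markers, read beside Dnm1, summed to 132 to 950 normalized counts in old and 154 to 494 in young samples (exact permutation p = 0.610), with 2 of 9 markers at 10 or more in every sample. Their part in the rise of Dnm1 was not tested. Of the other 7 tested genes of the SPFH family, to which the flotillins belong, 0 passed by limma (6.94% of all genes) and by edgeR (6.05%), 1 by DESeq2 (10.2%) and 2 had an unadjusted p under 0.05 (23.8%). Stom, the stomatin of red cell and endothelial membranes, was at 16776 ± 1797 in old and 13923 ± 1537 in young samples (log2 difference 0.27, limma adjusted p = 0.121). Erlin1, of the endoplasmic reticulum, was at 1083 ± 109 in old and 1319 ± 81.8 in young samples (log2 difference -0.29, limma adjusted p = 0.0905). Both were picked after their values were seen.

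Src-family kinases associate with rafts through their lipid anchors. Of 17 tested genes of the list of raft partners and GPI-anchored surface proteins, 0 rose and 3 fell, against 3.73% and 3.21% of all genes. Those 3 were kinases of this family: Fyn (4493 ± 751 in old, 7155 ± 1241 in young, log2 difference -0.67, limma adjusted p = 0.0100), Yes1 (-0.50, adjusted p = 0.0387) and Lyn (-0.46, adjusted p = 0.00651). For Yes1 edgeR gave an adjusted p of 0.0513. Src itself had a log2 difference of -0.27 (limma adjusted p = 0.573). The list median was -0.00, against -0.01 over all genes.

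Receptors and regulators of transcytosis, the route that vesicle proteins serve, formed another list: of 16 tested genes, 1 rose and 5 fell, against 3.73% and 3.21% of all genes, with a median of -0.37, against -0.01 over all genes. Sparc, a secreted matrix protein, averaged 59489 ± 7198 in old and 111098 ± 13567 in young samples (log2 difference -0.90, limma adjusted p = 0.00048). Mfsd2a, the lipid transporter that holds back caveolar transcytosis at the blood-brain barrier, averaged 15847 ± 3746 in old and 26345 ± 2585 in young samples (-0.76, adjusted p = 0.00437). Alpl, alkaline phosphatase, was the gene that rose, at 71248 ± 7870 in old and 39447 ± 6017 in young samples (0.86, adjusted p = 0.000545). Old and young samples did not overlap for these 3 genes, nor for Lrp8 of the same list, against 4.29% of all genes. The 3 were named for the lowest p of the list, so their lack of overlap is no separate evidence. This list, like the others, was chosen with earlier results of these data known. Its counts and median are therefore descriptions.

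Of 29 tested genes of the clathrin coat and clathrin-mediated endocytosis 0 rose and 2 fell, a share of 6.90% called that is close to the 6.94% over all genes, with a median of -0.20: the adaptor Dab2 (5061 ± 675 in old, 6947 ± 613 in young, log2 difference -0.46, limma adjusted p = 0.0132) and the membrane-bending Bin1 (-0.51, adjusted p = 0.0379). Of 16 tested genes of clathrin-independent uptake 0 passed by limma (6.94% of all genes) and by edgeR (6.05%), 2 by DESeq2 (10.2%) and 5 had an unadjusted p under 0.05 (23.8%), with a median of -0.12. The nearest to the threshold was the small GTPase gene Arf6 (log2 difference -0.31, limma adjusted p = 0.0824). Of 13 tested signalling partners of caveolae 2 rose and 0 fell, against 3.73% and 3.21% of all genes. They were the calcium pump gene Atp2b4 (747 ± 136 in old, 458 ± 70.1 in young, 0.70, limma adjusted p = 0.0111) and the channel gene Trpc1 (72.0 ± 32.8 in old, 15.3 ± 10.1 in young, 2.62, limma adjusted p = 0.0400, edgeR adjusted p = 0.0663).

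The last 2 lists concern Plvap. Of 10 tested genes tied to fenestrated endothelium and VEGF, Plvap left out, 0 rose and 1 fell, against 3.73% and 3.21% of all genes. It was the VEGF co-receptor Nrp1 (11700 ± 1635 in old, 16495 ± 1806 in young, log2 difference -0.50, limma adjusted p = 0.0125). Of 16 tested components of Wnt signalling, the pathway that keeps Plvap low in brain endothelium, 0 rose and 2 fell, against 3.73% and 3.21% of all genes, with a median of -0.16. Nkd1, a feedback inhibitor of the pathway, averaged 6447 ± 603 in old and 14480 ± 1942 in young samples (-1.16, limma adjusted p = 2.4e-05), and Apcdd1, another inhibitor, averaged 14995 ± 2335 in old and 24183 ± 3772 in young samples (-0.69, adjusted p = 0.00424). Other feedback inhibitors of the list, chosen after their values were seen, did not pass: Axin2 had a log2 difference of -0.15 (limma adjusted p = 0.618), Znrf3 -0.04 (adjusted p = 0.900) and Notum -0.24 (adjusted p = 0.173). The transcription factor gene Lef1, in the same list, was at 21107 ± 2182 in old and 22133 ± 2246 in young samples (adjusted p = 0.709).

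**Figure D5:**
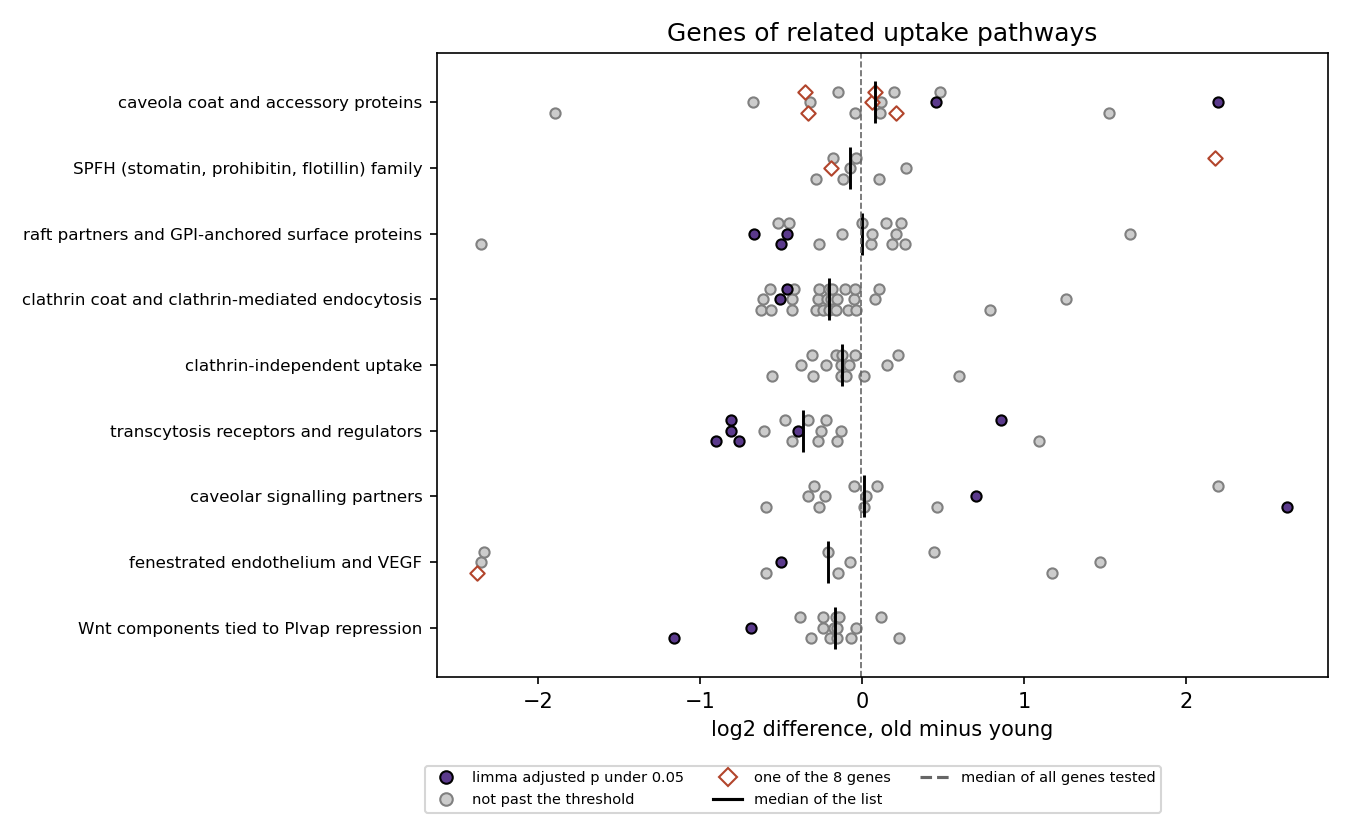
Log2 difference, old minus young, of every tested gene of 9 lists, 1 point per gene; purple points passed limma's threshold, grey points did not, open diamonds are the 8 genes, bars are list medians and the dashed line is the median of all genes, -0.01. Transcytosis receptors and regulators have the lowest median (-0.37), and Flot2, chosen on this difference, is the diamond at 2.18. The lists were chosen with earlier results of these data known.

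Of the 9 lists of cell type markers, 0 passed between the ages after adjustment, and 2 had an exact permutation p under 0.05 before it. Pericyte and smooth muscle markers summed to 1320 to 12531 in old and 3088 to 19363 in young samples (log2 difference -1.41, exact permutation p = 0.0455, adjusted p = 0.162). Astrocyte markers summed to 11954 to 45960 in old and 7237 to 38446 in young samples (1.03, exact permutation p = 0.0541, adjusted p = 0.162), with 10 of 11 markers at 10 or more in every sample. Microglia markers summed to 1516 to 2168 in old and 1324 to 1623 in young samples (0.31, exact permutation p = 0.0108, adjusted p = 0.0974). Blood markers, 6 of 10 of them at 0 in every sample, had a log2 difference of -1.17 (exact permutation p = 0.299), oligodendrocyte markers 0.17 (p = 0.701), choroid plexus markers 0.38 (p = 0.167) and fibroblast markers -0.77 (p = 0.136). With the astrocyte sum as a covariate the log2 difference was 2.19 for Flot2, -0.08 for Flot1, 0.13 for Cav1, -0.02 for Cav2, -3.39 for Plvap, -0.28 for Dnm2, -0.24 for Ehd2 and 0.18 for Ehd4. With the mural sum it was 2.24 for Flot2, -0.08 for Flot1, 0.08 for Cav1, -0.09 for Cav2, -2.32 for Plvap, -0.23 for Dnm2, -0.41 for Ehd2 and 0.00 for Ehd4. The 7 genes other than Flot2 did not pass the threshold in either fit. Of all 12777 genes tested, 353 passed with the astrocyte sum and 309 with the mural sum.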

How the data were processed

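Per the labels' protocols, RNA of sorted brain endothelial cells was amplified with SMART-seq v4 and tagged with Nextera XT. Tools listed in the submitters' processing notes are STAR 2.4.2a, FastQC 0.11.2, R 3.2.2 and Cuffdiff 2.2.1, with build mm9. What each was used for, the annotation, the counting step and its strand setting were not given in the sources used here. In all, the authors deposited 1 table of 12 samples holding a signal for each gene, labelled as normalized counts. In the deposited table each column is made of whole multiples of 1 step (100% of values whole within 0.001), so whole reads could be recovered and used as counts by the alternatives. Depth was 25809499 to 40393814 reads in genes per sample.

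Genes with a mean of at least 10 (12777) were compared on log2(value + 1) with limma 3.58.1 in R 4.3.3 (age as the only term, moderated variances with a trend, two-sided, Benjamini-Hochberg over all genes, threshold 0.05). Adding 1 before the log can shrink differences of low genes. A difference of mean log2 values can also lie farther from 0 than a count-based estimate. For Trpc1 it was 2.62 by limma and 2.24 by edgeR, and for Plvap -2.37 and -1.63. Every adjusted p without another tool's name is from the limma fit. The alternatives edgeR 4.0.16 and DESeq2 1.42.0 ran on the recovered reads. On simulated reads of 12477 genes for old against young, limma recovered 75% of genes changed by 1 and 91% of genes changed by 2 on the log2 scale, with 2.35% of its calls false. The changed genes were drawn only from genes with a higher mean than the filter asks. Apart from depth, the simulated samples held no GC trend or other effect shared across genes. These rates therefore do not carry over directly to the data. Pairs were tested by permutation within age (100000 resamples, 28 pairs) and marker sums by exact permutation over 924 labelings (smallest p 0.00216, adjusted over 9 lists).

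The members, the 9 pathway lists (153 entries) and the marker lists were chosen with earlier results of these data known. Genes named were all 8 members, up to 3 called genes of lowest p per list or the gene of lowest p where none passed, the 5 genes most like Flot2, Cav1 and Plvap within ages, and neighbouring or overlapping genes; the cavins, Stom, Erlin1, Src, Lef1, Axin2, Znrf3, Notum and the likeness list of Ehd2 were added after values were seen. Exon lengths, GC content and coordinates are from GENCODE vM21 (GRCm38) and promoters from RefSeq, matched by symbol, a later build than mm9. GC content was known for 99.3% of the genes tested. Reads of samples from the same age always differed beyond sampling noise (lowest chi-square per degree of freedom 34.0). Whether each pool was from different animals is not in the labels, and p-values therefore reflect only the spread among these pools, which may be technical. Reads carry no molecular identifiers.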

Additional observations from a re-analysis of the deposited data

Results flagged for a closer look

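Plvap in young 9 stood far from the other young samples, at 3205 normalized counts against 99.5 to 1140 in the other 5; its gap to the nearest sample was 0.665 of the group's range, where Dixon's critical value is 0.625. On the log2 scale used for the tests the gap was 0.298 of the range, below that value. It was the 1 such sample among 16 groups examined (8 genes in each age), and chance flags about 1 group in 20. Young 9 also had the highest sums of astrocyte (38446) and choroid plexus markers (8921) among young samples. It was among the samples with lower values for transcripts rich in GC, yet its Plvap value was high. Plvap transcripts hold 60.6% GC, above the median of 50.2% over the genes tested. The part of these markers and of GC content in the value was not tested.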

How the results depend on the processing

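Over 29 alternative settings the log2 difference of Flot2 lay between 2.12 and 2.26, Flot1 between -0.26 and -0.08, Cav1 between 0.06 and 0.35, Plvap between -3.39 and -1.63, Dnm2 between -0.38 and -0.17, Ehd2 between -0.55 and -0.06 and Ehd4 between 0.00 and 0.18, each on 1 side of 0. Dnm2 passed the threshold after linear GC trend removal (-0.34), a setting chosen after seeing the data, and by DESeq2 (-0.32). Cav2 changed sign with array weights (-0.015), with the replicate block and in the same 10 samples without it (-0.058 in both, the second added after seeing the data), without the 3 GC-trend samples (-0.092), with the astrocyte (-0.022) or mural covariate (-0.087), and ranged from -0.023 to 0.15 with single samples left out, turning negative without old 7 (-0.004) or old 9 (-0.023); the cause was not tested. The count of all genes called, 887, was 1380 with array weights, 1408 by DESeq2, 353 and 309 with the astrocyte and mural covariates, and 554 (without young 4) to 1227 (without young 9) with single samples left out. The replicate numbers did not pair the samples: correlations of same-numbered samples ran from -0.16 to 0.10, and 1 of 10 samples correlated best with its own number. The replicate block over the 10 samples that share numbers called 610 genes, against 472 in the same samples without it, and changed no call of the 7 tested members. Calls in the caveolar signalling list fell to 1 by edgeR. Precision for Plvap is limited by the spread between samples; its reads ran from 20 to 3351 per sample.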
